A study of Mus musculus with 8 samples.

Results

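SMAD4 is the shared partner of the receptor-activated SMAD proteins, and it carries BMP and TGFβ signals to chromatin. The regions described here are SMAD4 peaks of the mouse limb bud at E10.5 that lay inside genes, away from any transcript start and without a counterpart at E9.5. They were selected on the peak calls themselves, from the E10.5 list of SMAD4 peaks, by 3 criteria. A peak had no 1 bp overlap with a peak of the E9.5 list, its centre was more than 5 kb and less than 100 kb from the nearest annotated transcript 5′ end, and its centre lay within the body of an annotated gene. Of 8258 peaks in both lists, 6185 of them at E10.5, 1408 met these criteria, and they are called intragenic peaks in the following.

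The series holds 8 samples, namely 2 SMAD4 ChIP samples and 2 input samples at E9.5 and the same at E10.5. All embryos, of strain NMRI according to the labels, were homozygous for an endogenous Smad4 allele that carries a 3xFLAG tag, and chromatin was precipitated with the M2 antibody to the tag. No embryos without the tag are among the groups, and both stages therefore share the tagged allele. Pools of about 80 embryos per replicate gave forelimb buds with attached trunk at the earlier stage, which the labels call E9.5 while the dissection protocol gives a slightly later time. Pools of about 100 embryos per replicate gave fore- and hindlimb buds at E10.5, although the source label names forelimb buds throughout. Stage and tissue thus change together and cannot be told apart. The 2 replicates of a stage had been merged before deposition, so no value below has an error between replicates, and the read depth behind a list is unknown. Absence from the E9.5 list means that no peak was listed there, not that SMAD4 was absent. Intervals in the following are 95% Wilson intervals for shares and 95% exact conditional intervals for odds ratios and for ratios of pairs, and they cover counting error over peaks or genes only.

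SMAD4 binds short DNA elements, among them the SMAD box CAGAC, its extended form CAGACC, the palindrome GTCTAGAC and the GC-rich element GGCGCC. Binding far from a transcript start is common for transcription factors of the limb bud, where enhancers often lie within introns of the gene they act on or of a neighbour. An exon can also hold regulatory sequence beside its code. Peaks within introns and peaks within coding exons are therefore described apart.

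The sequences of SMAD elements within the best-scored intragenic peaks show what these regions look like. Each sequence has 30 bases of mm9, is read 5′ to 3′ on the strand that carries the element, and has the element in capitals. The 5 best-scored intron peaks with a CAGACC, GTCTAGAC or GGCGCC match in the central 300 bp came first, and all 5 carried CAGACC.
Cdh15 intron, chr8:125389741-125389770, plus strand: cacacaaatgtcCAGACCctgcttccagtc
Galns intron, chr8:125117509-125117538, minus strand: aacagtgaaagaCAGACCgtgccgtaggaa
Zcchc24 intron, chr14:26545562-26545591, plus strand: tgatcagaaataCAGACCcaaagcatttgc
Cd82 intron, chr2:93269268-93269297, plus strand: accggaggtcctCAGACCtgagctgtgggc
Gm20388 intron, chr8:122801080-122801109, plus strand: gctcactgagccCAGACCctgtcccttcct

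The scores of these 5 peaks, in the same order, were 124, 124, 115, 107 and 106. The Gm20388 peak lies in no gene but a very long model that is described with the annotation. Coding exon peaks with such a match are shown for 3 genes, and these had CAGACC as well. Their scores were 177 in Tmco4, 105 in Sipa1l3 and 90.8 in Itsn2. The class refers to the centre of a peak, not to the element. The Tmco4 match was 130 bp from a centre in an exon of 118 bp, and thus outside that exon.
Tmco4 coding exon peak, chr4:138609930-138609959, minus strand: aggccaatgggaCAGACCaagactcaccac
Sipa1l3 coding exon peak, chr7:30172204-30172233, plus strand: aagcccttcagaCAGACCttgtcgcccaag
Itsn2 coding exon peak, chr12:4714944-4714973, plus strand: tgaaacttcccaCAGACCcttccagcgatg

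The palindrome GTCTAGAC, in which 2 SMAD half-sites face each other, was found in the central windows of 4 intron peaks, all of low to moderate score. They are shown because the palindrome was rare at E10.5. The scores were 54.1 in Kcnma1, 53.1 in Arsb, 49.1 in Foxn3 and 47.4 in Tmod1.
Kcnma1 intron, chr14:24271103-24271132, plus strand: ctggtctggatGTCTAGACacagaccccaa
Arsb intron, chr13:94563372-94563401, plus strand: caaggttcacaGTCTAGACagaatgctgct
Foxn3 intron, chr12:100567309-100567338, plus strand: aaagcagggaaGTCTAGACgacctggttcc
Tmod1 intron, chr4:46107831-46107860, plus strand: agagtgggagtGTCTAGACctatgtcctct

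Introns held most of the intragenic peaks, and coding exons held more of them than their length would give. The centre lay in an intron for 1191 of the 1408 peaks (84.6%, interval 82.6-86.4%), and 94.5% of the genic bases that met the same distance criteria were intronic. It lay in a coding exon for 126 peaks (8.95%, interval 7.57-10.6%), whereas coding exons made up 2.38% of the eligible genic bases. The share of peaks in coding exons was thus 3.77 times that of the bases (interval 3.19-4.44). Untranslated regions held 73 peaks, 2.12 times their share of bases, and exons of non-coding transcripts held 18. Base composition moved with these classes, as the eligible coding bases had a GC content of 50.2% and the eligible intron bases one of 42.3%, and its part in the shares was not tested. Among the 517 distal intragenic peaks of the E9.5 list alone, 467 (90.3%, interval 87.5-92.6%) were intronic and 31 (6%, interval 4.26-8.39%) in coding exons, and the intervals of both stages overlap for coding exons but not for introns. No test of this difference was run.

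**Figure D1:**
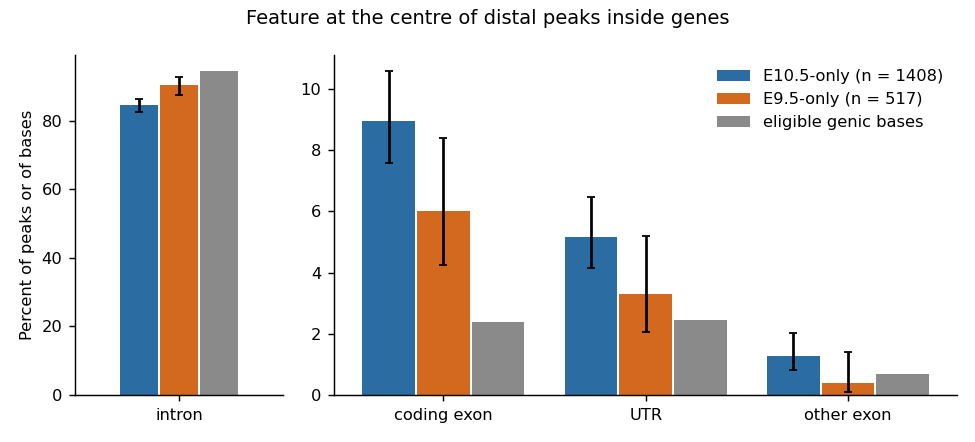
Share of distal peaks inside genes with their centre in an intron (left) or in a coding exon, a UTR or another exon (right), in percent of peaks with 95% Wilson intervals, for 1408 E10.5-only and 517 E9.5-only peaks, beside the percent of eligible genic bases. Coding exons held 8.95% of the E10.5-only peaks and 2.38% of the bases.

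The coding exons involved were long, and none was the first exon. Their median length was 626 bp (quartiles 164 and 1955 bp), against 191 bp at the median eligible coding base. Exons of 1000 bp or more held 50 of the 126 coding exon peaks (39.7%, interval 31.6-48.4%) and 22.4% of the eligible coding bases. The last exon held 34 of the 126 peaks (27%, interval 20-35.3%), and 64 of them (50.8%) had their centre in the last 20% of the length of the host gene, as did 280 of 1191 intron peaks (23.5%) and 68 of 73 UTR peaks (93.2%). A distance of more than 5 kb from every start removes first exons, and UTR bases close to a start, from what could be found. Eligible bases in last exons and in the last 20% of genes were not counted. These shares therefore do not show a preference for the ends of genes. Peaks were much wider than exons, since coding sequence filled a median of 30.7% of the interval of a coding exon peak. Conversely, 463 of the 1191 intron peaks (38.9%) had intervals that reached into a coding exon, so that the classes describe the centre of a peak rather than all of it.

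First and second introns held peaks close to their share of intron bases, and the last intron held somewhat more. Of 1113 intron peaks that could be placed in a numbered intron of a protein-coding gene, 257 (23.1%, interval 20.7-25.7%) lay in the first intron, which held 23% of the eligible intron bases. The second intron held 16% of the peaks and 15.3% of the bases. The last intron held 10.9% of the peaks (interval 9.18-12.8%) and 8.24% of the bases.

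Genes as such also held more than their length. Of the 2473 distal E10.5-only peaks, 56.9% (interval 55-58.9%) were inside genes, and 43.5% of the eligible bases were genic. The same share was 49.9% (interval 46.8-52.9%) of 1037 distal E9.5-only peaks. The X chromosome held 7 intragenic peaks (0.497%), although it had 5.09% of the eligible genic bases. Chromosome 3 held 38 peaks (0.521 times its share of bases), and chromosome 7 held 114 (1.49 times).

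Few distal intragenic peaks of the E10.5 list overlapped an E9.5 peak, as was the case for the E10.5 list as a whole. Overlap was found for 43 of 1451 such peaks (2.96%), which were left out, and for 387 of all 6185 E10.5 peaks (6.26%). Near misses were few, because 2 intragenic peaks had an E9.5 peak within 1 kb and 41 within 10 kb. The smallest gap was 681 bp and the median gap was 222 kb. The intragenic peaks centred nearest to and farthest from a start were 5002 bp and 99785 bp away, the latter being the Gm20388 peak shown above, and the closest intragenic E10.5-only peaks outside the limits lay at 4992 bp and 100952 bp. The median distance from a start was 16 kb (quartiles 9.53 and 29.2 kb), with 388 peaks at 5 to 10 kb, 585 at 10 to 25 kb, 283 at 25 to 50 kb and 152 at 50 to 100 kb.

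Scores were low to moderate in most intragenic peaks, and coding exon peaks had the higher share of good scores. The deposited score, in which a higher value stands for a more significant peak, had a median of 56.6 over the intragenic peaks (quartiles 51 and 66.4) and a highest value of 184. The median was 56 for intron peaks, 60.5 for coding exon peaks and 60.4 for UTR peaks. A score of 100 or more was reached by 46 peaks (3.27%), namely 33 in introns (2.77% of intron peaks), 11 in coding exons (8.73%) and 2 in UTRs. Over all E10.5 peaks, 8.44% reached this score. Scores below 50 were given to 21.7% of intron peaks and 5.56% of coding exon peaks. Widths had a median of 2947 bp, with 2817 bp in introns, 3103 bp in coding exons and 4276 bp in UTRs. The 1065 E10.5-only distal peaks between genes had a median width of 2258 bp and a median score of 54.6. These values come from the calls that selected the peaks and are given without a test.

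**Figure D2:**
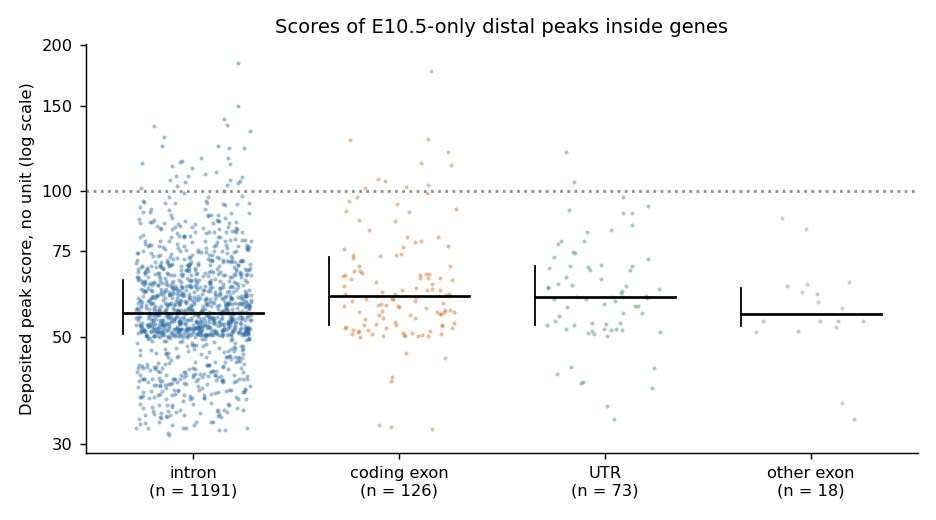
Deposited score (log scale, no unit) of each of the 1408 intragenic peaks by the feature at its centre, with 1 point per peak, the median as a horizontal line and the quartiles as a vertical line. The 46 peaks above the dotted line at 100 comprise 33 intron, 11 coding exon and 2 UTR peaks.

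The best-scored intron peaks lay in genes of varied function. A peak with a score of 141 was found in the second intron of Lin28b, the gene of an RNA-binding protein that blocks let-7 maturation, and at 1361 bp it was far narrower than the others of this rank. The peak in Cspg4, which encodes the NG2 proteoglycan, scored 137 and lay in intron 8 of 9. Other peaks of this rank were in 4831426I19Rik (136), Heatr6 (133), Mcf2l, a guanine nucleotide exchange factor (129), the cadherin gene Cdh15 (124), the lysosomal sulfatase gene Galns (124) and the lincRNA gene Gm16862 (123). The second-best intron peak, with a score of 150, was assigned to Gm20388 and is discussed with the annotation. In Heatr6, Cspg4 and Cdh15 the peak lay in the last or second-last intron.

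The best-scored coding exon peak, with a score of 177, was centred on a 118 bp exon of Tmco4 at chr4:138607348-138612282, and the nearest start, that of the neighbour Htr6, was 20.9 kb away. Peaks with a score of 128 were centred on an exon of 119 bp in Baat1 and one of 118 bp in Ptprs, which encodes a receptor tyrosine phosphatase. The 4th was in Sall3, a zinc finger gene of the limb bud, with a score of 120 and the centre in an exon of 2892 bp. The 5th was in Smad7, which encodes an inhibitory SMAD, with a score of 114 and the centre in an exon of 2109 bp. The Smad7 peak was 9.46 kb from the nearest E9.5 peak, and both lists had a peak centred within 5 kb of the 5′ end of Smad7.

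Intragenic peaks were spread over many genes. They had 1149 different host genes, of which 969 held 1 peak, 133 held 2, 34 held 3 and 13 held 4 or more, including 2 very long gene models that are described with the annotation. Hosts were protein-coding for 1351 peaks (96%) and lincRNA genes for 33. The nearest start belonged to the host gene for 859 of 1408 peaks (61%, interval 58.4-63.5%), with 62.2% of intron peaks and 60.3% of coding exon peaks, and for the others it was the start of another gene. Another E10.5 peak lay within 10 kb of 165 intragenic peaks (11.7%, interval 10.1-13.5%), as for 9.36% of all E10.5 peaks.

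Scube1, whose product belongs to a family of secreted and membrane proteins that includes a factor for Hedgehog release, held 6 peaks, the most of any gene apart from those 2 models. They lay 12.8, 65.4, 72, 85.8, 110 and 118 kb from the 5′ end of the 122 kb gene, and the last, in the final exon, had the best score (80.3). The widths of the 6 peaks ranged from 4638 to 7762 bp. Some were close neighbours, such as chr15:83434299-83441293 and chr15:83441780-83449541, and whether these are separate sites was not tested. Wwox, an oxidoreductase gene of 913 kb, held 5 peaks with scores from 33.3 to 117. Rai1, which encodes a chromatin-associated protein, held 4 peaks within 94.2 kb, all in its first and second introns, with scores of 63.4, 86.2, 63.1 and 61.1. Per eligible length, Rai1 had 71.8 peaks per Mb and Scube1 51.1, and the long Wwox had 9.91. Jakmip3 and Trak1 completed the 5 leading genes with 4 peaks each, and 6 other protein-coding genes also held 4, namely Zbtb7c, Shank2, Grik4, Cdh23, Atp2b2 and Ano2.

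**Figure D3:**
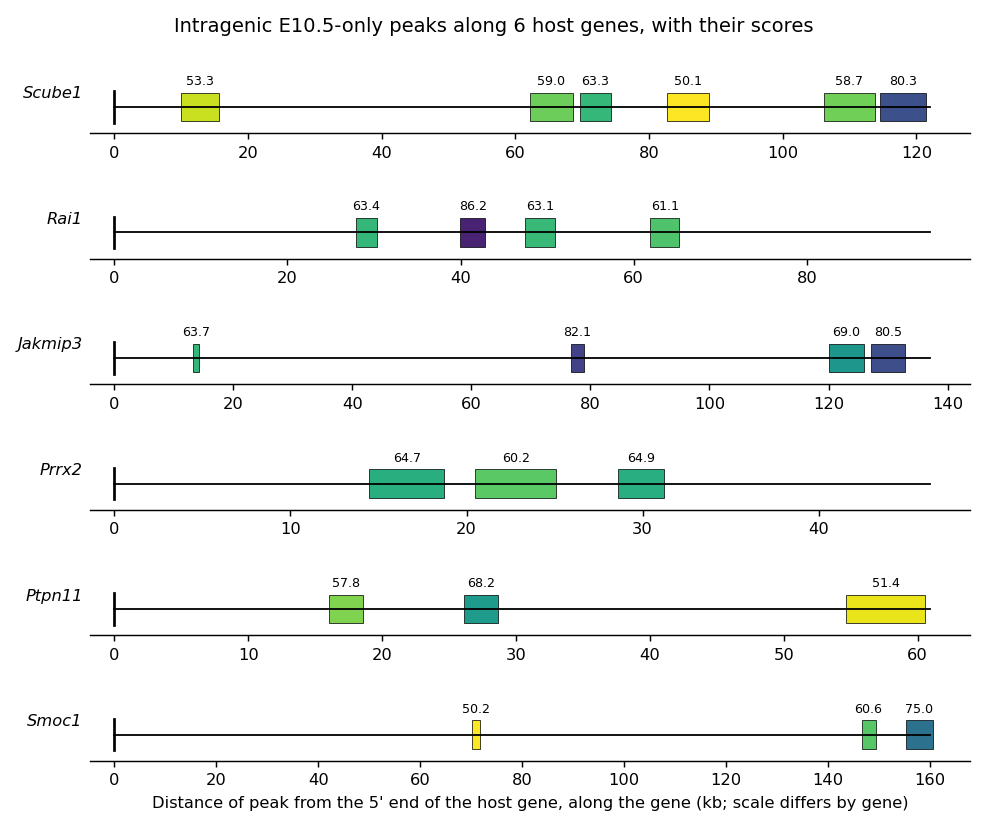
Intragenic E10.5-only peaks along Scube1, Rai1, Jakmip3, Prrx2, Ptpn11 and Smoc1, drawn to scale as boxes by the distance from the 5′ end of the gene in kb, with the score above each box and darker colour for a higher score. In Scube1 the first peak lay 12.8 kb from the 5′ end and the others 65.4 to 118 kb from it, and the 3 peaks of Prrx2 lay together in its first intron.

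Long genes were hosts more often than short genes, but per base they held fewer peaks. Of 14411 protein-coding genes of up to 2.5 Mb with bases that met the distance criteria, 1108 (7.69%, interval 7.26-8.13%) held an intragenic peak, and this is the background for the gene lists below. The share was 2.49% for genes up to 20 kb, 5.8% at 20 to 50 kb, 9.8% at 50 to 100 kb, 17.6% at 100 to 200 kb and 23.1% above 200 kb. Over the same classes, the number of peaks per eligible Mb was 4.95, 3.29, 2.27, 2.09 and 1.26. An E10.5 peak was also centred within 5 kb of the 5′ end of the gene model for 220 of the 1108 hosts (19.9%, interval 17.6-22.3%) and for 1817 of 13303 other genes (13.7%, interval 13.1-14.3%). Other transcript starts of a gene were not considered here. The gap between hosts and other genes did not follow gene length. It was widest for genes up to 20 kb, with 20.7% (interval 14.4-28.7%) and 10.7% (interval 9.89-11.7%), and for those above 200 kb, with 25.5% (interval 20.2-31.6%) and 14.3% (interval 12-17.1%). The shares were 12.4% and 13.2% at 20 to 50 kb, 18.4% and 17.7% at 50 to 100 kb, and 24% and 19.1% at 100 to 200 kb.

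Limb bud transcription factors had the highest share of hosts among 8 gene lists, with intervals that overlap those of the other lists. Of 45 such genes that could hold a peak, 14 did (31.1%, interval 19.5-45.7%), against 7.69% of all protein-coding genes and 5.8% of genes of 20 to 50 kb, the class that includes the median length of the list (33.1 kb). The best-scored of these peaks were in the UTR of Alx4 (120), the coding exon of Sall3 (120) and the UTR of Pitx1 (93.2), a hindlimb regulator. Prrx2, a homeobox gene of the limb mesenchyme, held 3 intron peaks with scores of 64.9, 64.7 and 60.2, and the TALE homeobox genes Pknox1 (77.2) and Pknox2 (67.7 and 37.3) also held peaks. Further hosts were Tshz2 with 2 peaks (58.9 and 56.9), Tshz1 (54.5), Twist2 (50), Zbtb16 (49.6), Gata4 (45.5), Zfhx3 (43.1) and Lmx1a (42.6). One of the Pknox2 peaks, with a score of 37.3, was 0.822 kb from an E9.5 peak, and that in Gata4 was 2.18 kb from one.

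**Figure D4:**
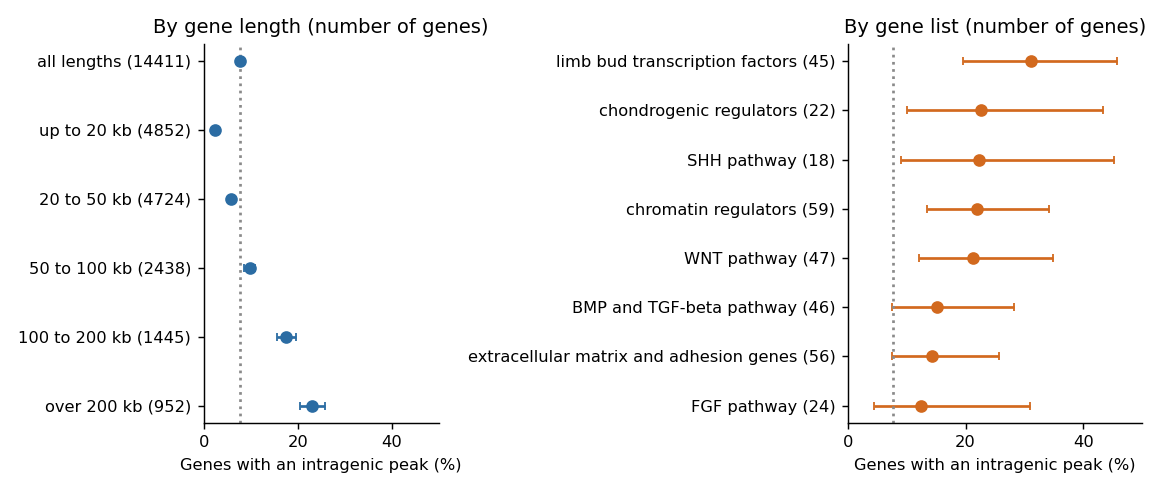
Percent of protein-coding genes with an intragenic peak, by gene length (left) and by gene list (right), with 95% Wilson intervals, the number of genes that could hold a peak in brackets and a dotted line at the 7.69% of all 14411 genes. The share rose from 2.49% to 23.1% with gene length, and was highest among the lists for limb bud transcription factors (31.1%).

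Signalling genes were also among the hosts. In the BMP and TGFβ list, 7 of 46 genes (15.2%, interval 7.57-28.2%) held 9 peaks. The inhibitory SMAD genes Smad7 (114) and Smad6 (71.2) were among them, with the receptor genes Acvr1b (91.2, in a UTR) and Acvr1 (53.7), the ubiquitin ligase gene Smurf1 (55.5) and the ligand gene Bmp6 (34.4). Smoc1, which encodes a secreted modulator of BMP signalling, held 3 peaks with scores of 75, 60.6 and 50.2, the first of them in a UTR at its 3′ end. In the SHH list, 4 of 18 genes (22.2%, interval 9-45.2%) were hosts. Besides Scube1 these were the receptor gene Ptch1 (69), Scube2 (52) and the inhibitor gene Sufu (49.4). In the FGF list, 3 of 24 genes (12.5%, interval 4.34-31%) were hosts, where Fgfr2 was left out for its model of more than 2.5 Mb, with 3 peaks in the phosphatase gene Ptpn11 (68.2, 57.8 and, in a UTR, 51.4) and 1 each in Spred2 (50.3) and Sos2 (39.9).

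In the WNT list, 10 of 47 genes (21.3%, interval 12-34.9%) held a peak. The transcription factor genes Tcf7l2 (83.9 and 75.5) and Lef1 (63.7), the planar polarity genes Prickle2 (78.3, in a coding exon), Celsr1 (58 in an intron and 56.7 in a coding exon) and Vangl1 (41.3, in a coding exon), the antagonist gene Nkd1 (69.2), the ligand gene Wnt11 (60.8), the receptor gene Lgr5 (58.4), Daam2 (57.2) and Daam1 (38.7) were the hosts. The chondrogenic list had 5 hosts among 22 genes (22.7%, interval 10.1-43.4%), namely Runx1, Nfia, Nfib, Sox5 and Trps1, all with intron peaks of scores from 46.2 to 70.5. Among 59 chromatin regulator genes 13 were hosts (22%, interval 13.4-34.1%), and those with good scores included Arid1a, a subunit of SWI/SNF complexes (87.1), Rai1 (86.2), the DNA methyltransferase gene Dnmt3a (82.9, in a UTR) and Prdm16 (78.7, in a UTR). The acetyltransferase gene Ep300 held 2 peaks, both in coding exons and both narrow (809 and 640 bp). In the matrix and adhesion list, 8 of 56 genes (14.3%, interval 7.42-25.7%) were hosts, led by Fbln1 (114) and by Hspg2, the gene of perlecan (94.3). The lower bounds for the FGF, BMP and TGFβ, and matrix lists were below the background of 7.69%. The median gene length of the lists ranged from 33.1 to 107 kb, above the 30.6 kb of all 14411 genes. The matrix list, with a median of 107 kb, was below the 17.6% of genes of 100 to 200 kb. The BMP and TGFβ, SHH, WNT, FGF, chondrogenic and chromatin lists had medians within 50 to 100 kb, where 9.8% of genes were hosts, and this value lay within the intervals of the BMP and TGFβ, SHH and FGF lists. A list median can differ from the lengths of the hosts in the list. All chondrogenic hosts were longer than 200 kb, from 225 kb (Runx1) to 954 kb (Sox5), and 23.1% of all genes above 200 kb were hosts. The part of length in these shares was not tested.

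The SMAD box was common in the central 300 bp of intragenic peaks and also beside them, whereas the palindrome and GGCGCC were infrequent. CAGAC occurred in the central 300 bp of 689 of 1191 intron peaks (57.9%) and in 639 windows of the same size placed 1 kb beyond the peak edge (53.7%). The element was in the centre only in 325 pairs and in the flank only in 275, a ratio of 1.18 (exact interval 1-1.39). The difference did not pass adjustment over 36 tests (two-sided exact McNemar test, p = 0.0454, Benjamini-Hochberg adjusted p = 0.154). In the same exact McNemar tests, CAGACC was found in 19.6% of centres and 16.6% of flanks (adjusted p = 0.201), GTCTAGAC in 4 centres and 3 flanks (adjusted p = 1), and GGCGCC in 2.27% and 1.09% (ratio 2.17, exact interval 1.06-4.71, adjusted p = 0.154). With 500 bp windows, both CAGAC (77.2% of centres and 72% of flanks) and GGCGCC (3.53% and 1.76%) passed (exact McNemar test, adjusted p = 0.0426 for each). The gap for CAGAC was similar with 150 bp windows (34.6% and 30.1%) and in the narrower 50% of peaks (56.1% and 50.9%), and neither passed. It narrowed under other settings, since CAGAC was in 56% of both windows in the better-scored 50% of peaks, in 57.9% and 56.8% with the flank at the lower-coordinate edge, and in 57.9% and 57% with the flank 5 kb away. At 45 to 60% GC, GGCGCC was in 1.59% and 1.16% (exact McNemar test, adjusted p = 0.971). At least 2 CAGAC elements were present in 25.2% of centres and 20% of flanks, given as a description. Over all E10.5 peaks, CAGAC was present in 53.2% of central windows of this size.

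The GC box GGGCGG, an element bound by SP and KLF factors, was the only one of 18 motifs to pass the test in intron peaks, while 6 had an unadjusted p under 0.05. It was found in 104 centres (8.73%) and 50 flanks (4.2%), in the centre only in 101 pairs and in the flank only in 47, a ratio of 2.15 (exact interval 1.51-3.11, exact McNemar test, adjusted p = 0.000385). Centres had a median GC content of 51.3% and flanks one of 47.3%. Among the 692 pairs with both windows at 45 to 60% GC, the shares were 7.23% and 5.06% (exact McNemar test, adjusted p = 0.643). With the flank on the lower-coordinate side they were 8.73% and 5.54% (exact McNemar test, adjusted p = 0.106). By the same exact McNemar test, GGGCGG passed with 150 bp windows (adjusted p = 0.023) and with the flank 5 kb away (adjusted p = 0.0468). It did not pass in the better-scored 50% of peaks (exact McNemar test, adjusted p = 0.0804). The 3 best-scored intron peaks with the element are shown, with scores of 117 in Rgma, 107 in Accn4 and 107 in Cacna1c.
Rgma intron, chr7:80558979-80559008, minus strand: agccaagggctgGGGCGGgggcaggggagg
Accn4 intron, chr1:75454348-75454377, plus strand: ctcccgagcaggGGGCGGgggggggggggg
Cacna1c intron, chr6:119058660-119058689, minus strand: gggcgcgggcagGGGCGGgcgcgggcgcgg

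The Cacna1c window had 6 GC boxes and a GC content of 81.7%, the other 2 windows had 53% and 56.3%. GGGCGG was far more frequent over all E10.5 peaks (28.2% of windows), most of which lie closer to starts. Windows of CpG island-like composition, with at least 50% GC and an observed to expected CpG ratio of at least 0.6, made up 1.6% of intron centres, 13.5% of coding exon centres and 4.32% of centres between genes.

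None of the 18 motifs passed in the 125 pairs of the coding exon peaks by the exact McNemar test, although 5 had an unadjusted p under 0.05. CAGAC was present in 61.6% of centres and 60% of flanks (ratio 1.06, exact interval 0.632-1.8). GGCGCC was in 6.4% of centres and 0.8% of flanks (ratio 8, exact interval 1.07-355, exact McNemar test, p = 0.0391, adjusted p = 0.154). The lowest p was that of CAGCTG, an E-box bound by E proteins, with 25.6% of centres and 11.2% of flanks (exact McNemar test, p = 0.00792, adjusted p = 0.118). AGATAA, an element that factors of the GATA family bind, was in 7.2% of centres and 18.4% of flanks (exact McNemar test, p = 0.0125, adjusted p = 0.118). GGGCGG was in 15.2% of centres and 10.4% of flanks with an adjusted p of 0.583 by this exact test, and it passed with 500 bp windows (25.6% and 12%, adjusted p = 0.0426) and with the flank 5 kb away (15.1% and 3.17%, adjusted p = 0.0468). The GC content differed more between centre and flank than in introns, with medians of 55.7% and 45.3%.

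**Figure D5:**
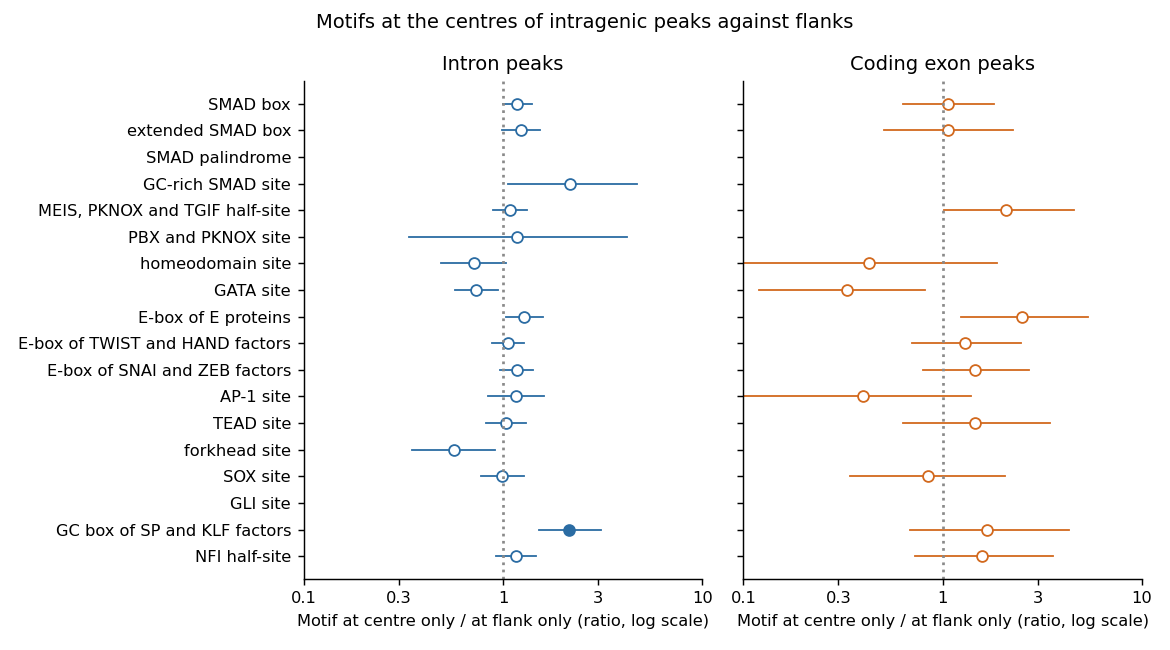
Ratio of pairs with a motif in the central 300 bp only to pairs with it in the flank only (log scale), for 18 motifs in intron peaks (left) and coding exon peaks (right), with exact 95% intervals cut at 0.1 and 10, filled points for an adjusted p under 0.05 and no point below 10 discordant pairs. The GC box in intron peaks (2.15) is the only filled point.

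Motif content of intron peaks was also set against 3 other classes. Against the 1065 E10.5-only distal peaks between genes, 0 of 18 motifs passed Fisher's exact test (two-sided, adjusted over 18), and 1 had an unadjusted p under 0.05. This was GGCGCC, with 2.27% of intron peaks and 4.41% of peaks between genes (odds ratio 0.502, interval 0.299-0.831, exact test, adjusted p = 0.08). CAGAC was present in 57.9% and 57% (odds ratio 1.04, interval 0.873-1.23). Against the 467 intronic E9.5-only distal peaks, 0 of 18 passed Fisher's exact test and 2 had an unadjusted p under 0.05. CAGAC was found in 57.9% of the E10.5-only and 64.7% of the E9.5-only intron peaks (odds ratio 0.75, interval 0.596-0.941, exact test, adjusted p = 0.133), and GTCTAGAC in 4 of 1191 and 7 of 467 (odds ratio 0.221, interval 0.0474-0.877, adjusted p = 0.133). Both sets of centres had a median GC content of 51.3%, while the E9.5-only intragenic peaks were narrower (median 1044 bp), so that the central 300 bp covered more of each peak there.

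Between coding exon and intron peaks, 0 of 18 motifs passed Fisher's exact test and 2 had an unadjusted p under 0.05. GGCGCC was present in 6.35% and 2.27% (odds ratio 2.92, interval 1.12-6.8, exact test, adjusted p = 0.258) and GGGCGG in 15.1% and 8.73% (odds ratio 1.86, interval 1.03-3.19, adjusted p = 0.304). With 500 bp windows GGGCGG passed, with 25.4% and 13.9% (Fisher's exact test, adjusted p = 0.0262). CAGAC differed little, with 61.1% and 57.9% (odds ratio 1.14, interval 0.774-1.71). TGACAG, a half-site of the MEIS, PKNOX and TGIF homeodomain factors, was present in 23.8% and 23.2%, and TAATTA, a homeodomain element, in 2.38% and 4.87% (adjusted p = 0.601 by Fisher's exact test).

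The annotation set a limit on which peaks count as intragenic. In 2 gene models of more than 2.5 Mb, each of them resting on a single transcript, gene bodies covered many neighbours. The model of Fgfr2, chr7:137305965-140315033, spanned 3.01 Mb through 1 of 29 transcripts, and it held 12 peaks, 6 of which lay in no other gene. The other transcripts of Fgfr2 spanned at most 104 kb. The model of Gm20388, chr8:122434741-126869622, spanned 4.43 Mb and held 28 peaks, 18 of them in no other gene. Among these was the second-best intron peak, chr8:122601990-122607739, with a score of 150 and the nearest start at 5.87 kb in Zdhhc7. Without both models 24 peaks (1.7%) would lie between genes.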

How the data were processed

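SMAD4-3xFLAG ChIP-seq peaks of mouse limb buds were analysed from 2 merged lists, 1 per stage. Per the study's methods and processing notes, the authors aligned trimmed reads to mm9 with Bowtie 1.1.0, keeping unique matches, and called peaks in each replicate against its input with MACS 1.4. Replicates were combined by MSPC, which kept the best p-value per merged peak. The deposited score has no named unit, its values are compatible with a scaled MACS p-value, and it was used only to rank and describe peaks. Depth could not be assessed, and wider or more numerous peaks can come from deeper libraries.

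Peaks were annotated on mm9 with GENCODE vM1 (coding exon before UTR, other exon and intron), with Python 3.11.15, SciPy 1.17.1 and pysam 0.24.0. Coordinates are 1-based. Eligible bases met the distance criteria and were not corrected for mappability. The host was the gene whose coding exon held the centre, otherwise a model up to 2.5 Mb, then a protein-coding and then the longest gene. Motifs were searched on both strands in the central 300 bp, since no summits were given, and in windows 1 kb beyond the higher-coordinate edge. The 18 motifs were the SMAD box (CAGAC), extended SMAD box (CAGACC), SMAD palindrome (GTCTAGAC), GC-rich SMAD site (GGCGCC), MEIS, PKNOX and TGIF half-site (TGACAG), PBX and PKNOX site (TGATTGAC), homeodomain site (TAATTA), site that factors of the GATA family bind (AGATAA), E-box of E proteins (CAGCTG), E-box of TWIST and HAND factors (CATCTG), E-box of SNAI and ZEB factors (CACCTG), AP-1 site (TGANTCA), TEAD site (GGAATG), forkhead site (TGTTTAC), SOX site (ACAATG), GLI site (TGGGTGGTC), GC box of SP and KLF factors (GGGCGG) and NFI half-site (TTGGCA); every CAGACC match also holds a CAGAC match. Tests were exact McNemar and Fisher's exact tests, with Benjamini-Hochberg adjustment within a family, and were tested on simulated data. Windows of neighbouring peaks are not independent replicates of a stage, so these p-values describe the lists. Named are the 10 best-scored intron and 5 best-scored coding exon peaks, the 5 genes with most peaks and the best peaks of genes of the 8 lists, and other names were chosen after their values were seen; some items that this rule names are not reported here. The intragenic peaks, motifs and gene lists were chosen with earlier results of these data known. The input samples have no values of their own here.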

Additional observations from a re-analysis of the deposited data

How the results depend on the processing

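No paired analysis was possible because the replicates of each stage were merged before deposition, and for the same reason no replicate could be left out. Of 1408 intragenic peaks, 46 remained at a score of 100 or more and 570 in the better-scored 50% of the E10.5 list. The intron share of 84.6% was 71.7% and 79.8% under these settings and 82.1% with centres more than 2.5 kb from a start, and the coding exon share of 8.95% was 23.9% and 11.8%. The gap of 1 kb to E9.5 peaks, the restriction to starts or bodies of protein-coding genes and, chosen after seeing the data, the removal of both long gene models left the number within 1.5 times and both shares within their intervals. The number of motifs past the test in intron peaks against flanks, 1 as described, was 8 with 500 bp windows (CAGAC and GGCGCC among them) and 0 in the better-scored 50%, 0 with windows of 45 to 60% GC and 0 with the flank at the lower-coordinate edge. It was 4 in the narrower 50% of peaks, a setting also chosen after seeing the data. In coding exon peaks it rose from 0 to 2 with 500 bp windows and to 1 with the flank 5 kb away. For coding exon against intron peaks the number of motifs past the test rose to 1 with 500 bp windows. For E10.5-only against E9.5-only intron peaks it rose to 1 (GTCTAGAC, Fisher's exact test, adjusted p = 0.0399) in the better-scored 50%. Of 174 values for 6 single motifs under alternatives, 165 kept their side of the threshold, 6 passed only under the alternative and 3 (all GGGCGG in intron peaks) no longer passed. In the better-scored 50%, GGGCGG was in 9.23% of 455 centres and 3.96% of flanks (exact McNemar test, adjusted p = 0.0804), a difference of 5.27 percentage points against 4.53 over all pairs. None that passed changed direction. The cause of these shifts was not tested.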
